A study of Homo sapiens with 21 samples.

Results

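SYK and 9 genes of the signalling pathway around it were followed at the RNA level in 3 human myeloid leukaemia cell lines after SYK knockdown. The genes were BLNK, BTK, PLCG2, VAV1, LCP2, CBL, PIK3CD, INPP5D and PTPN6, a list drawn from the pathway by a rule that uses no measured value, although earlier results of these data were known when it was set. Every probe set (a group of short array probes read as 1 value) that the platform annotation assigns to 1 of these 10 symbols was taken. That gave 14 probe sets of the 19724 with 1 gene symbol, which cover 12165 genes. SYK, LCP2, PIK3CD and INPP5D had 2 probe sets each and the other genes had 1, and all 14 are reported.

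SYK is a cytoplasmic tyrosine kinase with tandem SH2 domains that dock on phosphorylated activation motifs of immune receptor adaptors, and integrins also engage it in myeloid cells. Active SYK phosphorylates the adaptors BLNK and LCP2 (SLP-76), on which the TEC-family kinase BTK, the phospholipase PLCG2 and the exchange factor VAV1 assemble, and the pathway branches to calcium release, RAC activation and, through the leukocyte PI3-kinase subunit PIK3CD, to phosphoinositide signalling. INPP5D (SHIP1), which removes a phosphate from the product of PI3-kinase, PTPN6 (SHP-1), a tyrosine phosphatase, and CBL, a ubiquitin ligase that binds SYK, oppose the signal.

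MOLM-14 is an acute myeloid leukaemia line of monocytic type that carries a FLT3 internal tandem duplication, HL-60 is of promyelocytic type and U937, isolated from a histiocytic lymphoma, is monocytic. Each was transduced with a short hairpin RNA (shRNA) against luciferase, which human cells lack (shLuc), or with 1 of 2 SYK hairpins, shSYK_1 and shSYK_2. All cells, controls included, were under puromycin selection (1 µg/ml) from 48 h after viral transduction. RNA collected on day 5 was read on HT U133A arrays. Every line had 3 shLuc, 2 shSYK_1 and 2 shSYK_2 arrays, 21 in all, described in the labels as separate transductions, so the spread behind a p-value is that between transduced cultures of 1 line. The series asks how SYK bears on FLT3 in this leukaemia, and the question followed here is which of the kinase's own partners moved when its RNA was lowered. The arrays read bulk RNA, in which fewer cells of a type and less RNA per cell cannot be told apart.

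The 2 SYK hairpin targets are shown because several members responded differently to them. Each is written as given in the labels, and the capitals mark target bases 14 to 20 of 21, which face bases 2 to 8 of an antisense strand that would begin opposite the last target base. The strand that the cells processed is not stated.
shSYK_1 target: gcagcagaacagaCATGTCAa
shSYK_2 target: gcaggccatcatcAGTCAGAa
The targets share their first 4 bases and are alike at 10 of 21 positions, but only at 2 of the 7 positions in capitals. Of the 21 bases, 10 in the shSYK_1 target and 11 in the shSYK_2 target were G or C.

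The values are array intensities on a linear scale, with array medians of 18.4 to 20.6. Differences were tested on log2 values with limma, and a probe set was called where its adjusted p (Benjamini-Hochberg over all 19724 probe sets) was below 0.05. "Rose" and "fell" are used only for called changes. For HL-60 shSYK_2 replicate 1 the labels conflict, since the title and treatment name shSYK_2 and the source name shSYK_1. It was kept in shSYK_2, and its difference from HL-60 shLuc correlated with that of the other shSYK_2 array at r = 0.616 and with the shSYK_1 mean at r = 0.37 across 19724 probe sets, which are not independent replicates. Its pair also stood apart, with a median absolute log2 difference of 0.176 between the replicates against 0.0908 to 0.119 in the other pairs, and its upper quartile of intensity was 122 against 134 to 139.8 on the other arrays. The labelled cell types were read against marker lists. In shLuc cells, 4 of 8 monocytic markers in MOLM-14 and U937 and 6 of 8 in HL-60 lay above the array's median probe set. So did 6 to 7 of 7 promyelocytic granule genes, 0 to 1 of 9 B cell, 1 of 13 T and NK cell, 1 of 7 erythroid and 0 of 7 megakaryocyte markers. The median splits all probe sets evenly, so 4 of 8 is no excess. Summed shLuc intensity was highest in HL-60 for the monocytic list (2638 to 2688) and in U937 for the granule list (23790 to 24470). These lists thus did not order the lines by their named types.

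All 10 genes had at least 1 probe set on the array, and in control cells their levels set the 3 lines apart. Between shLuc MOLM-14 and shLuc HL-60, 13 of 14 probe sets were called against 45.4% of all probe sets, between U937 and HL-60 11 of 14 against 49.6%, and between MOLM-14 and U937 10 of 14 against 48.2%. The array medians of HL-60 were lower, and centring each array on its median would lower the MOLM-14 minus HL-60 differences by 0.14 and the U937 minus HL-60 differences by 0.15 on the log2 scale. Levels are compared within a probe set and not between genes.

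BLNK, the B-lymphoid adaptor that couples SYK to BTK and PLCG2, was lower in HL-60 than in the other lines. Its intensity was 58.1, 56.8 and 61.1 in MOLM-14, 59.3, 58.1 and 58.8 in U937, and 9.22, 6.83 and 7.66 in HL-60, where all 3 arrays lay below the array median. MOLM-14 and U937 overlapped. The log2 difference from HL-60 was 2.90 for both lines (adjusted p = 7.18e-12 for MOLM-14 and 5.69e-12 for U937). It was 1.64 for MOLM-14 on the log2(intensity + 16) scale, so the size of the difference depends on how the dim HL-60 values are treated.

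BTK was highest in U937, at 867, 873 and 900.2, against 469, 462 and 503 in MOLM-14 and 398, 349.8 and 404 in HL-60. The U937 level was 2.3-fold that of HL-60 (adjusted p = 4.84e-10). PLCG2, which cleaves PIP2 to start calcium release, was lowest in HL-60, at 197, 216 and 216, against 455, 500.1 and 457 in MOLM-14 and 418, 423 and 419 in U937. MOLM-14 stood 2.25-fold above HL-60 (adjusted p = 2.84e-10), whereas MOLM-14 and U937 differed by 0.16 on the log2 scale (adjusted p = 0.068).

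VAV1 also ordered U937 over MOLM-14 over HL-60, with mean log2 intensities of 8.02 ± 0.037, 7.79 ± 0.081 and 7.26 ± 0.17 (SD, n = 3 each). The U937 and MOLM-14 means differed by 0.24 (adjusted p = 0.0152), a call that ended without MOLM-14 shLuc replicate 2 (adjusted p = 0.051), MOLM-14 shLuc replicate 3 (0.0612) or U937 shLuc replicate 1 (0.0535). LCP2 ordered U937 over HL-60 over MOLM-14 on both probe sets, with means of 7.87 ± 0.022, 7.38 ± 0.062 and 6.97 ± 0.039 on 205270_s_at. PIK3CD 203879_at had the same order, at 10.04 ± 0.024, 9.76 ± 0.030 and 9.44 ± 0.096, but its U937 and HL-60 levels no longer differed by the test after median centring (adjusted p = 0.0823).

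The inhibitory phosphatases peaked in MOLM-14. INPP5D 203332_s_at read 309, 318 and 311 in MOLM-14, 217, 246 and 222 in U937 and 165, 164 and 156 in HL-60, with no overlap, and MOLM-14 stood 1.94-fold above HL-60 (adjusted p = 1.01e-08). PTPN6 was 9.53 ± 0.014 in MOLM-14, 9.38 ± 0.018 in HL-60 and 9.03 ± 0.049 in U937. Its MOLM-14 and HL-60 levels differed by 0.15 (adjusted p = 0.0386), but by 0.01 after median centring (adjusted p = 0.877). The second PIK3CD probe set, 211230_s_at, read 12.9 to 16.5 over the 9 shLuc arrays, below the array medians. CBL read 14.5 to 19.7, below the medians in MOLM-14 and U937 and on either side of them in HL-60.

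SYK itself ordered differently by probe set. On 207540_s_at the shLuc means were 8.99 ± 0.074 in HL-60, 8.68 ± 0.021 in U937 and 8.45 ± 0.035 in MOLM-14, whereas on 209269_s_at U937 (6.45 ± 0.031) lay above HL-60 (6.24 ± 0.053). MOLM-14 was lowest on both. The U937 to HL-60 order on 209269_s_at had an adjusted p of 0.0294 that rose to 0.495 after median centring.

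**Figure D1:**
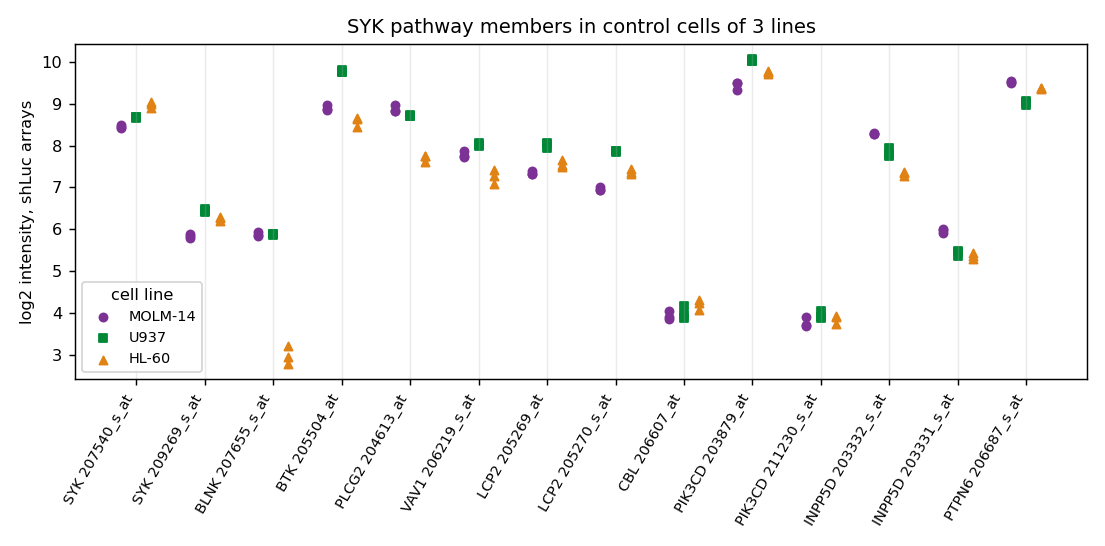
Log2 intensity of the 14 probe sets (horizontal axis) on the 3 shLuc arrays of each cell line; each marker is 1 array. BLNK in HL-60 is set far below the other lines, BTK is highest in U937 and INPP5D 203332_s_at falls from MOLM-14 to U937 to HL-60.

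Promoters of the members were read from a RefSeq table (GRCh38.p14) that holds 300 bases per start site, 250 before and 50 after, for 9 of the 10 genes. CBL had no entry. The windows are shown because 8 letters, GAGGAAGT, of the kind bound by ETS-family factors such as PU.1, recurred in them. On either strand it was present in a promoter of 6 of the 9 genes (SYK, BTK, VAV1, LCP2, INPP5D and PTPN6), against 2.59% of all 35116 promoters and 3.15% of genes. The motif was picked after these promoters had been seen, so the count is a description. The shorter GAGGAA, which lies within it, was in 27.9% of all promoters and added PLCG2, and TTTCCTC was in 9.26% and, among the members, in SYK alone. Each line gives up to 30 bases on either side of the match on the gene's strand, 5′ to 3′, with the match in capitals (ACTTCCTC where it lies on the opposite strand).
SYK chr9:90801707-90801774, plus strand: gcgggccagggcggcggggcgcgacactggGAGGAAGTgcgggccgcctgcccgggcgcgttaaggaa
BTK chrX:101390930-101390997, minus strand: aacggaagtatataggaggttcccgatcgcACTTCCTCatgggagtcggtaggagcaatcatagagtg
BTK chrX:101390788-101390855, minus strand: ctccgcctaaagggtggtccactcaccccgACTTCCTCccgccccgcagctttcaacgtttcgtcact
VAV1 chr19:6772667-6772734, plus strand: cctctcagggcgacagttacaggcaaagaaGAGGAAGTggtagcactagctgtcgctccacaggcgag
LCP2 chr5:170297820-170297887, minus strand: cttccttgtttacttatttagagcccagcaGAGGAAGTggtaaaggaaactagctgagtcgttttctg
INPP5D chr2:233060249-233060316, plus strand: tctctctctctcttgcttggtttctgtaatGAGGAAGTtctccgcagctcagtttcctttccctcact
PTPN6 chr12:6946571-6946626, plus strand: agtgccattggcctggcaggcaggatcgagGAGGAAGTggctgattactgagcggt
The first base of the match lay 82 bases before the start site of SYK, 171 and 29 before that of BTK, 11 before that of VAV1, 80 before that of LCP2 and 63 before that of INPP5D. In PTPN6 it lay 24 bases after the first transcribed position. BLNK and PIK3CD, whose promoters held neither form, and PLCG2 also have their windows in the table.

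The knockdown was read first, on SYK. On 207540_s_at, SYK in MOLM-14 was 359, 342 and 347 with shLuc, 71.3 and 71.7 with shSYK_1, and 49.3 and 40.9 with shSYK_2. In U937 it was 404, 415 and 415 with shLuc, 130.2 and 126 with shSYK_1, and 94.7 and 93.5 with shSYK_2. In HL-60 it was 480, 532 and 514 with shLuc, 131 and 128 with shSYK_1, and 101 and 119.7 with shSYK_2. Every SYK hairpin array lay below every shLuc array of its line, and every shSYK_2 array below every shSYK_1 array of its line. Averaged over the lines, SYK fell to 21.7% of the shLuc level, a log2 difference of -2.21 (SE 0.040, adjusted p = 9.59e-16). shSYK_2 left less SYK RNA than shSYK_1 (18.5% against 25.3% of shLuc), a difference of -0.45 (SE 0.053, adjusted p = 3.97e-06), called in MOLM-14 and U937 but not in HL-60 (-0.24, adjusted p = 0.0852).

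The second SYK probe set gave the same knockdown and a weaker ranking of the hairpins. On 209269_s_at SYK was 55.5 to 58.8 with shLuc and 12.8 to 17.0 with the SYK hairpins in MOLM-14, 85.7 to 89.5 and 19.9 to 28.2 in U937, and 72.8 to 78.2 and 18.9 to 21.8 in HL-60, so the knockdown arrays lay below the array medians in MOLM-14 and near or above them in the other lines. The average difference was -1.92 (SE 0.040, adjusted p = 4.57e-15). The difference between hairpins was -0.15 (adjusted p = 0.034), and it passed the threshold in U937 (-0.37, adjusted p = 0.00797) but not in MOLM-14 (-0.20, adjusted p = 0.132) or HL-60 (0.11, adjusted p = 0.45). The call for the average ended without any 1 of 6 of the 21 arrays (adjusted p up to 0.126), and the call in U937 ended without shSYK_1 replicate 1 (0.0915) or shSYK_2 replicate 2 (0.106). The 2 SYK probe sets correlated at r = 0.972 over the 21 arrays, a description of 9 groups and not of independent points.

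**Figure D2:**
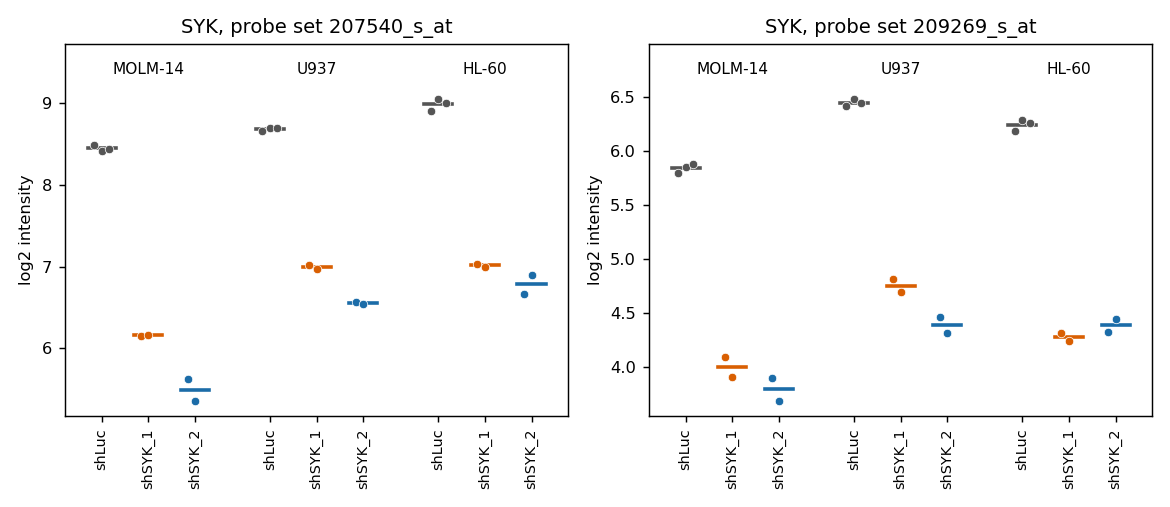
Log2 intensity of SYK on each of 21 arrays for probe sets 207540_s_at (left) and 209269_s_at (right), by cell line and hairpin; points are arrays and bars group means. All shSYK points lie below the shLuc points of the same line on both probe sets.

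With both hairpins pooled, VAV1 and LCP2 205270_s_at rose and BLNK fell for the average of the lines, and the share of partners called was near that of all probe sets. Of the 14 probe sets 5 were called, and without the 2 of SYK 3 of 12, against 30.7% of all 19724. Within lines the count was 4 of 14 in MOLM-14 (16.8% of all probe sets), 4 of 14 in U937 (12.2%) and 5 of 14 in HL-60 (21.3%), and without SYK it was 2, 2 and 3 of 12. Both SYK probe sets and VAV1 were called in each line, with BLNK in MOLM-14, PLCG2 in U937, and INPP5D 203332_s_at and PTPN6 in HL-60. For BLNK the average was -0.23 (adjusted p = 0.02), while pooled U937 gave 0.28 (0.187) and HL-60 -0.12 (0.577), neither called. Its average was -0.43 with shSYK_1 alone (adjusted p = 9.08e-04) and -0.04 with shSYK_2 alone (0.776). The median log2 difference over the 14 probe sets was 0.01 for the average of the lines and over all probe sets 0.002. The 3 lines share no array, but both hairpins of a line share its shLuc arrays.

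For the average of the lines, single hairpins called more of the members, and the called partners mostly fell with shSYK_1 and rose with shSYK_2. With shSYK_1, 9 of 14 probe sets were called for the average of the lines (31.2% of all), 2 up and 7 down. With shSYK_2, 8 of 14 were called (27.3% of all), 6 up and 2 down, the latter being SYK itself. Without SYK the counts were 2 up and 5 down of 12 with shSYK_1, and 6 up and 0 down with shSYK_2. By line, shSYK_1 called 7 in MOLM-14 (21.6% of all probe sets), 7 in U937 (13.9%) and 4 in HL-60 (20.5%). With shSYK_2 it was 7 in HL-60 (19.2%), 6 in U937 (13.8%) and 7 in MOLM-14 (14.4%). Without SYK, shSYK_1 gave 1 up and 4 down of 12 in MOLM-14, 0 up and 5 down in U937, and 2 up and 0 down in HL-60. For shSYK_2 the counts were 3 up and 2 down in MOLM-14, 4 up and 0 down in U937, and 5 up and 0 down in HL-60. In HL-60 the called partners thus only rose with either hairpin. The direct difference between hairpins, shSYK_2 minus shSYK_1, was called for 7 of 14 for the average (31.8%), 8 in U937 (19.7%), 7 in MOLM-14 (22.5%) and 2 in HL-60 (19.3%). Leaving out SYK, the calls of that average were 5 up and 0 down, for BLNK, BTK, PLCG2 and both INPP5D probe sets. Some counted calls sat at the threshold. In MOLM-14 the hairpin differences of BTK (adjusted p = 0.0496) and PTPN6 (0.0491) lost their call under 17 and 20 of the 31 alternative fits of the closing section. The average rise of PTPN6 with shSYK_1 (0.10, adjusted p = 0.0453) lost it under 21.

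Markers of maturation moved over the same arrays. With both hairpins, 7 of 8 measured monocytic markers rose and 0 fell, and 6 of 7 promyelocytic granule genes fell and 0 rose, for the average of the lines. Of all 12165 genes at their brightest probe set, 33.1% were called for that average, 34.4% with shSYK_1 and 29.2% with shSYK_2. With shSYK_1 alone, 7 monocytic markers rose and 0 fell (list median 0.85) and 5 granule genes fell and 0 rose (-0.47). With shSYK_2 alone, 4 monocytic markers rose and 1 fell (0.20), and 3 granule genes fell and 1 rose (-0.03). Single lines did not all follow the average. Mean log2 CD14 in HL-60 was 6.55, 9.49 and 8.385 with shLuc, shSYK_1 and shSYK_2. In the other lines it stayed within 2.71 to 3.25. In MOLM-14, in the same hairpin order, MNDA was 7.23, 8.755 and 5.97, CD86 4.84, 6.285 and 3.68, and CTSG 12.24, 11.75 and 12.85. The summed intensity of the monocytic list was 2638 to 2688 on shLuc and 3434 to 4741 on SYK hairpin arrays in HL-60, 1602 to 1687 and 1987 to 2427 in U937, and 773 to 803 and 735 to 1513 in MOLM-14. That of the granule list was 19420 to 20240 and 13950 to 17390 in HL-60, 23790 to 24470 and 19830 to 23510 in U937, and 9883 to 10260 and 8965 to 12930 in MOLM-14. Between hairpins, 7 of 8 monocytic markers were called lower with shSYK_2 than with shSYK_1 for the average of the lines. The list median was -0.53, and 34.5% of all 12165 genes were called. By line, 4 of 8 were called lower in MOLM-14 (25% of genes), 3 in U937 (21.7%) and 6 in HL-60 (20.9%). Of 7 granule genes, 3 were called higher and 2 lower for the average, with a list median of 0.03. The part of these marker shifts in the members' changes was not tested.

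**Figure D3:**
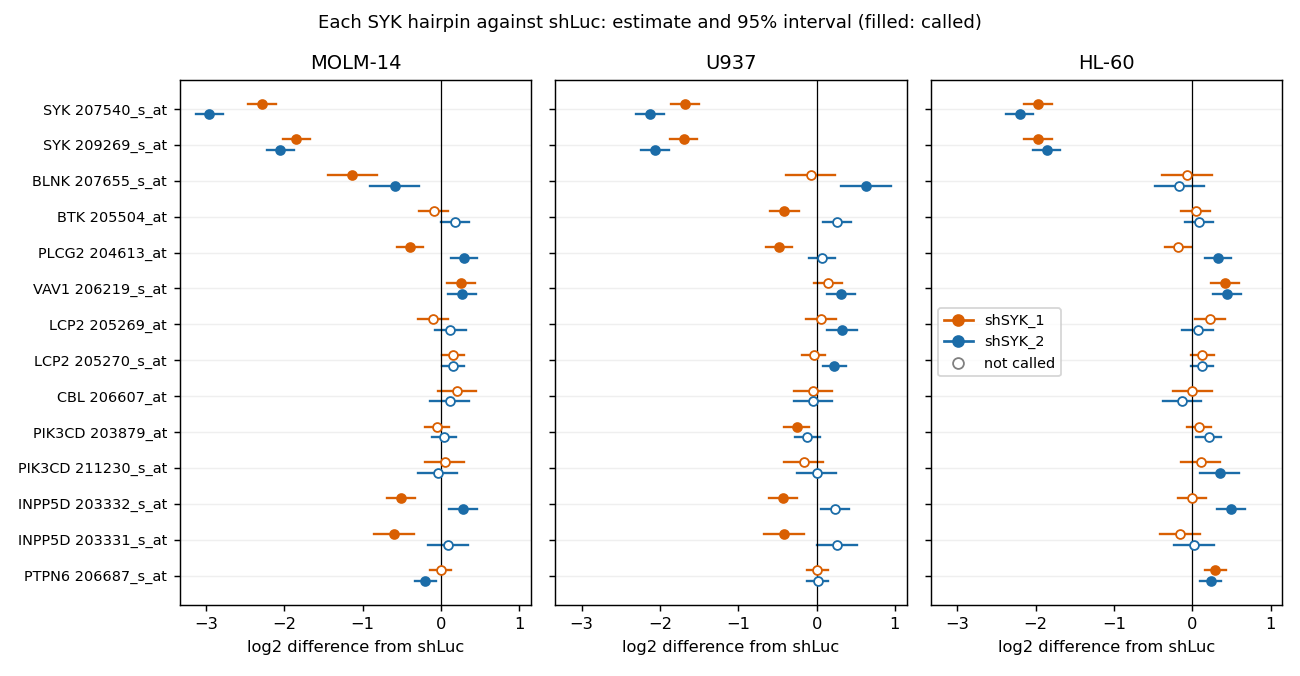
Log2 difference from shLuc (horizontal axis) of each probe set for shSYK_1 and shSYK_2 in the 3 lines, with 95% intervals from the fit; filled points are called. Apart from SYK, VAV1 lies to the right of 0 for both hairpins in each line, and PLCG2 and INPP5D split by hairpin.

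Among the adaptors, BLNK changed in a line-dependent way. In MOLM-14 its intensity was 58.1, 56.8 and 61.1 with shLuc, 31.2 and 22.9 with shSYK_1, and 34.5 and 43.9 with shSYK_2, so all 4 SYK hairpin arrays lay below all 3 controls. It fell to 55.0% of the control level (log2 difference -0.86, SE 0.13, adjusted p = 1.38e-04). In U937 it was 59.3, 58.1 and 58.8 with shLuc, 49.5 and 62.6 with shSYK_1, and 85.6 and 96.6 with shSYK_2, so only shSYK_2 stood clear of the controls, and above them (0.63, adjusted p = 0.00832). That call in U937 ended without shSYK_2 replicate 2 (0.54, adjusted p = 0.115). In HL-60, where BLNK read 6.70 to 9.22 on all 7 arrays, the groups overlapped. The fall with shSYK_2 alone in MOLM-14 (-0.59, adjusted p = 0.0123) ended without shSYK_2 replicate 1 (-0.42, adjusted p = 0.204).

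LCP2 encodes SLP-76, the relative of BLNK that does this work in T cells and most myeloid cells, and it moved little. On 205270_s_at it was 123 to 129 with shLuc and 135 to 142 with the SYK hairpins in MOLM-14, where the groups did not overlap, 229 to 236 and 226 to 282 in U937, and 161 to 175 and 171 to 194 in HL-60. The average rise was 0.12 (SE 0.033, adjusted p = 0.00769). No single line was called with both hairpins pooled, at 0.15 in MOLM-14 (adjusted p = 0.0813), 0.09 in U937 (0.359) and 0.13 in HL-60 (0.135). The other probe set, 205269_at, gave 0.11 (SE 0.044, adjusted p = 0.0614). Both were called with shSYK_2 for the average (0.17, adjusted p = 0.00382 and 0.0247) and neither with shSYK_1 (0.08 and 0.06, adjusted p = 0.142 and 0.461), but the difference between hairpins was called on neither (0.09 and 0.11, adjusted p = 0.145 and 0.178). The shSYK_2 call on 205269_at ended without any 1 of 4 of the 21 arrays (adjusted p up to 0.0645).

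BTK, the kinase that activates PLCG2, differed between the hairpins and most in U937. There it was 867, 873 and 900.2 with shLuc, 623 and 701 with shSYK_1, and 987 and 1127 with shSYK_2, 3 groups without overlap. The fall with shSYK_1 was to 75.1% of shLuc (-0.41, adjusted p = 0.00312) and ended without shSYK_1 replicate 1 (-0.33, adjusted p = 0.0709). The rise with shSYK_2 did not pass the threshold (0.26, adjusted p = 0.0543). Their difference was 0.68 (SE 0.094, adjusted p = 5.77e-05). In HL-60 BTK was 349.8 to 404 with shLuc and 388 to 427 with the SYK hairpins, which overlapped, and with both hairpins pooled over the lines the difference was 0.01 (95% interval -0.08 to 0.10).

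PLCG2 split by hairpin in every line. In MOLM-14 it was 455, 500.1 and 457 with shLuc, 354 and 360.2 with shSYK_1, and 554 and 599.7 with shSYK_2. In U937 it was 418, 423 and 419 with shLuc, 308 and 292 with shSYK_1, and 447 and 431 with shSYK_2. In HL-60 it was 197, 216 and 216 with shLuc, 169 and 201 with shSYK_1, and 265 and 261 with shSYK_2. The shSYK_1 arrays lay below the controls in MOLM-14 and U937, and the shSYK_2 arrays above the controls in all 3 lines. Against shLuc, however, shSYK_2 in U937 (0.06, adjusted p = 0.709) and shSYK_1 in HL-60 (-0.18, adjusted p = 0.119) were not called. Over the lines PLCG2 fell by 0.35 on the log2 scale with shSYK_1 (adjusted p = 9.59e-06) and rose by 0.23 with shSYK_2 (adjusted p = 0.00101). The hairpin difference was 0.58 (SE 0.050, adjusted p = 1.06e-07), called in each line at 0.69, 0.55 and 0.51 in MOLM-14, U937 and HL-60. Placing the array with conflicting labels in shSYK_1 ended the HL-60 difference (0.33, adjusted p = 0.484) and the shSYK_2 average (0.22, adjusted p = 0.0651). Pooled over hairpins and lines the difference was -0.06 (adjusted p = 0.247), and the pooled fall in U937 (-0.21, adjusted p = 0.0476) ended without any 1 of 15 of the 21 arrays (adjusted p up to 0.129).

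VAV1, a guanine nucleotide exchange factor, rose with each hairpin for the average of the lines. In HL-60 it was 136, 171 and 154 with shLuc, 206 and 204 with shSYK_1, and 205 and 212 with shSYK_2. In MOLM-14 it was 235, 215 and 212 with shLuc, 261 and 266 with shSYK_1, and 271 and 261 with shSYK_2. In U937 it was 267, 260.0 and 254 with shLuc, 302 and 275 with shSYK_1, and 313 and 333 with shSYK_2. All 12 SYK hairpin arrays lay above all shLuc arrays of their line. The average rise was 0.31 (SE 0.041, adjusted p = 1.92e-05), or 1.24-fold, with 0.27 for shSYK_1 and 0.34 for shSYK_2. The hairpin difference was 0.07 (95% interval -0.05 to 0.18, adjusted p = 0.388). By line the rise was 0.43 in HL-60 (adjusted p = 3.01e-04), 0.26 in MOLM-14 (0.0164) and 0.23 in U937 (0.0463). Of the 6 effects of 1 hairpin in 1 line, 5 were called, and shSYK_1 in U937 was not (0.15, adjusted p = 0.321, beside 0.31 and 0.0212 for shSYK_2). In MOLM-14 the calls with shSYK_1 (adjusted p = 0.0403) and shSYK_2 (0.0427) ended under 10 and 16 of the 31 alternative fits of the closing section. The shSYK_2 call in U937 ended under 5 of them, and only the HL-60 calls held under all. The pooled U937 call ended without any 1 of 15 of the 21 arrays (adjusted p up to 0.151), and the MOLM-14 call without MOLM-14 shLuc replicate 2 (0.0655), shLuc replicate 3 (0.0741) or shSYK_2 replicate 1 (0.0536). MOLM-14 minus the mean of U937 and HL-60 gave -0.07 (adjusted p = 0.781).

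PIK3CD, the catalytic subunit p110δ, and CBL had no called change with both hairpins pooled. PIK3CD 203879_at was 645 to 727 with shLuc and 644 to 718 with the SYK hairpins in MOLM-14. It was 1039.8 to 1074 and 832 to 1012 in U937, and 846 to 879 and 913 to 1011 in HL-60. In U937 all 4 SYK hairpin arrays lay below the controls and in HL-60 all 4 above, with pooled differences of -0.19 (adjusted p = 0.0598) and 0.15 (adjusted p = 0.108). With shSYK_1 alone it fell in U937 (-0.26, adjusted p = 0.0273), a call that ended without any 1 of 4 of the 21 arrays (adjusted p up to 0.288). On 211230_s_at the 21 arrays spanned 12.2 to 20.9, and the call with shSYK_2 in HL-60 (0.35, adjusted p = 0.0458) ended without any 1 of 12 of the 21 arrays (adjusted p up to 0.511). CBL spanned 14.0 to 20.3 and was called with neither hairpin in any line. Its average difference was 0.02 (95% interval -0.10 to 0.13), at dim intensities, where RMA shrinks folds most.

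INPP5D repeated the split seen for PLCG2. On 203332_s_at, MOLM-14 read 309, 318 and 311 with shLuc, 197 and 244 with shSYK_1, and 376 and 384 with shSYK_2. U937 read 217, 246 and 222 with shLuc, 172 and 166 with shSYK_1, and 281 and 258 with shSYK_2. HL-60 read 165, 164 and 156 with shLuc, 157 and 166 with shSYK_1, and 221 and 233 with shSYK_2. The shSYK_2 arrays lay above the controls in all 3 lines, and the shSYK_1 arrays lay below them in MOLM-14 and U937 and among them in HL-60. Against shLuc, shSYK_2 in U937 was not called (0.24, adjusted p = 0.0742). INPP5D fell by 0.31 with shSYK_1 (adjusted p = 7.33e-05) and rose by 0.34 with shSYK_2 (adjusted p = 5.2e-05) over the lines. The hairpin difference was 0.65 (SE 0.053, adjusted p = 6.32e-08), called at 0.79, 0.67 and 0.49 in MOLM-14, U937 and HL-60. With the array of conflicting labels in shSYK_1, the HL-60 difference was 0.38 (adjusted p = 0.368).

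The dimmer INPP5D probe set, 203331_s_at, gave part of that picture. It read 60.3 to 64.2 with shLuc, 41.9 and 41.0 with shSYK_1, and 55.2 and 80.6 with shSYK_2 in MOLM-14, where shSYK_2 straddled the controls. The hairpin difference was called for the average (0.51, adjusted p = 5.25e-05), in MOLM-14 (0.69) and in U937 (0.67), but not in HL-60 (0.17, adjusted p = 0.421). The rise with shSYK_2 was not called (0.12, adjusted p = 0.224), and the fall with shSYK_1 was (-0.39, adjusted p = 3.16e-04). The pooled HL-60 rise on 203332_s_at (0.25, adjusted p = 0.0183) was -0.07 on 203331_s_at (adjusted p = 0.708), and ended without HL-60 shLuc replicate 3 (adjusted p = 0.0768) or shSYK_1 replicate 2 (0.061).

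PTPN6 rose in HL-60. It was 668, 655 and 671 with shLuc, 776 and 856 with shSYK_1, and 799 and 767 with shSYK_2, and the rise was 0.26 (SE 0.052, adjusted p = 0.00135), or 1.2-fold, with all 4 arrays above the controls. In U937 it was 502 to 535 with shLuc and 523 to 529 with the SYK hairpins, a difference of 0.01 (95% interval -0.10 to 0.12). In MOLM-14 it was 729 to 744 with shLuc, 751 and 721 with shSYK_1, and 629 and 655 with shSYK_2. The fall with shSYK_2 there (-0.20, adjusted p = 0.0417) ended without any 1 of 12 of the 21 arrays (adjusted p up to 0.267).

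**Figure D4:**
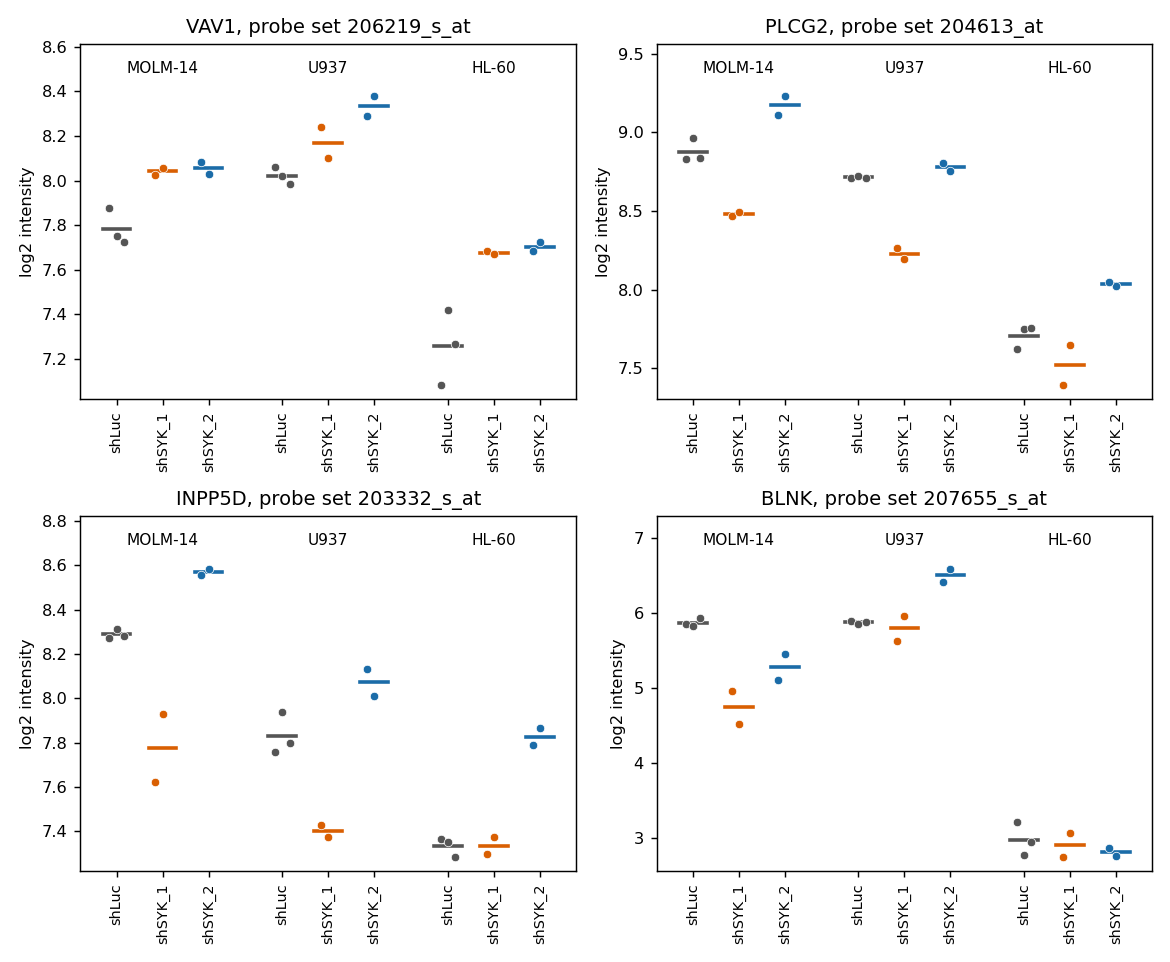
Log2 intensity on each array of VAV1, PLCG2, INPP5D (203332_s_at) and BLNK, by cell line and hairpin; points are arrays and bars group means, and each panel has its own axis. VAV1 is raised with both hairpins, PLCG2 and INPP5D lie higher with shSYK_2 than with shSYK_1 in each line, and BLNK is lowered in MOLM-14.

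The response of MOLM-14, the line with the FLT3 duplication, was set against the mean response of U937 and HL-60. In this 1 line the duplication cannot be told apart from the line's other traits. The difference in response was called for 3 of 14 probe sets, against 4.11% of all. The BLNK response in MOLM-14 differed from that mean by -0.94 (SE 0.15, adjusted p = 0.00159), and part of the mean comes from HL-60, where BLNK lay below the array median on all 7 arrays. SYK on 207540_s_at was lowered further in MOLM-14, by a difference of -0.63 (SE 0.086, adjusted p = 3.61e-04), and on 209269_s_at, where the MOLM-14 knockdown arrays lay below the array medians, the difference was -0.05 (95% interval -0.23 to 0.13, adjusted p = 0.835). The third was PTPN6 (-0.24, adjusted p = 0.0454), whose call ended without any 1 of 18 of the 21 arrays (adjusted p up to 0.12). Between U937 and HL-60, 1 of 14 probe sets was called, against 5.19% of all. It was PIK3CD 203879_at (-0.33, adjusted p = 0.0339), whose call ended without any 1 of 11 of the 21 arrays (adjusted p up to 0.0846).

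The pathway around the members was read from a list of 72 further genes of proximal SYK signalling, of which 58 were measured, each at its brightest probe set and called in the fit over all probe sets. For the average of the lines 21 rose, 7 fell and 30 were not called, with a median log2 difference of 0.09. The hairpins differed in this count, with 24 up and 5 down for shSYK_1 (median 0.13) and 15 up and 10 down for shSYK_2 (median 0.01). By line, 7 rose and 5 fell in MOLM-14, 9 rose and 2 fell in U937, and 22 rose and 5 fell in HL-60. Over all 12165 genes at the brightest probe set, 33.1% were called for the average and the median was 0.01, and 34.4% were called with shSYK_1, 29.2% with shSYK_2, 23.3% in HL-60, 18.3% in MOLM-14 and 13.7% in U937. For the average, of 19 adaptors and scaffolds 11 rose and 3 fell, of 9 kinases 3 rose and 1 fell, and of 7 phosphatases and ubiquitin ligases 3 rose and 0 fell. Of 7 phosphoinositide enzymes 0 rose and 1 fell, of 9 exchange factors and GTPases 2 rose and 1 fell, and of 7 genes of the CARD complex and NFAT 2 rose and 1 fell.

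The pathway genes with the largest average change and 1 sign in all 6 hairpin effects were the following. RASGRP2, a RAP1 exchange factor, fell by 0.58 (adjusted p = 2.62e-08), and by 1.15 in MOLM-14, and its hairpin difference was -0.58 (adjusted p = 3.95e-07). PIK3CG, the p110γ catalytic subunit, fell by 0.37 (adjusted p = 0.00458), and NCK1, an SH2 and SH3 adaptor, by 0.30 (adjusted p = 8.45e-05). DOK3, an inhibitory adaptor, rose by 0.32 (adjusted p = 4.33e-04), HCLS1, a cortactin-related SYK substrate, by 0.31 (adjusted p = 8.58e-07), and GAB2, a docking protein for PI3-kinase, by 0.26 (adjusted p = 8.92e-04). The hairpin difference was also called for GAB2 (0.26, adjusted p = 0.00601) and HCLS1 (0.15, 0.0115). GAB2 was not called with shSYK_1 alone (0.13, adjusted p = 0.14). Pooled within lines, HCLS1 was called in each, RASGRP2 and NCK1 in MOLM-14 and HL-60, and PIK3CG, DOK3 and GAB2 in HL-60 alone.

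Over the 21 arrays, the genes whose log2 level most resembled that of SYK 207540_s_at among 6081 genes compared were GTPBP3 (Pearson's r = 0.89), GNB1 (0.883) and TFDP1 (0.881), and the most opposed were HCLS1 (-0.883), EXOC1 (-0.835) and SSBP2 (-0.829). These describe 9 groups that share their hairpins, not 21 independent points. Among the members VAV1 had the value farthest from 0, at -0.548. These values mix the levels of the 3 lines with the response to knockdown. With each line's mean taken off, VAV1 stood at -0.856, LCP2 at -0.689 (205270_s_at) and -0.454 (205269_at), BLNK at 0.316, and the other members between -0.212 and 0.135. Within a line SYK varied mainly by hairpin, so these values largely restate the comparison with shLuc, in which 30.7% of all probe sets were called. They were computed for the members only.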

How the data were processed

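Total RNA of 3 cell lines was read on 21 arrays. The deposited values are array intensities that, per the submitters' processing notes, the authors summarised with RMA, whose version is not stated. The deposited intensity values run from 3.23 to 13024.67, a linear scale, and log2 was taken without a pseudocount. RMA makes no detection calls, shrinks folds of dim probe sets most, and the number of arrays limits the precision. Of 22277 probe sets, 62 were controls, 568 had several symbols and 1979 had none, and these were not tested. Symbols were updated by gene ID through RefSeq (GRCh38.p14) for 19707 probe sets. No probe set with several symbols named a member.

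A model with 9 group means was fitted to all 19724 probe sets in limma 3.58.1 (R 4.3.3; 12 residual and 4.46 prior degrees of freedom), with 21 contrasts, two-sided tests and Benjamini-Hochberg adjustment. The script was tested on simulated data. No replicate block was used, because same-numbered arrays did not deviate together, although that check had too few independent pairs to decide whether they share a batch. Fits with other probe set choices, scaling, filters, priors or arrays are given in the closing section. The members and lists were chosen with earlier results of these data known. Other pathway genes were named by a rule, up to 6 with the largest called average change and 1 sign in all 6 hairpin effects.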

Additional observations from a re-analysis of the deposited data

Results flagged for a closer look

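The following members are listed because their response to SYK knockdown differed between lines by a test of the difference itself, the interaction term of the limma fit with Benjamini-Hochberg adjustment. BLNK differed between MOLM-14 and the mean of the other lines by -0.94 (adjusted p = 0.00159), with BLNK below the array median on all 7 HL-60 arrays. SYK 207540_s_at differed in the same comparison by -0.63 (adjusted p = 3.61e-04), and the second SYK probe set did not pass (-0.05, adjusted p = 0.835). PTPN6 differed in that comparison by -0.24 (adjusted p = 0.0454). PIK3CD 203879_at differed between U937 and HL-60 by -0.33 (adjusted p = 0.0339). Groups of 2 or 3 arrays were not searched for single outlying arrays.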

How the results depend on the processing

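The 294 member values (14 probe sets in 21 comparisons) were each recomputed under 29 to 32 alternatives, the 21 arrays left out in turn included. Fits with 1 value per gene gave 210 values, and each fit of a single line gave 14. Of 135 called values, 82 kept their call and direction under the alternatives run for them, and of 159 not called, 127 were called under none of these. Leaving out HL-60 shSYK_2 replicate 1 ended 5 calls and added 4. No called value changed sign. For the average of the lines, 1 probe set per gene gave 3 called members of 10. In U937 the pooled count of 4 became 2 with the replicate block, with the array of conflicting labels (HL-60 shSYK_2 replicate 1) moved to shSYK_1 and with only the arrays of U937, and 2 to 4 with single arrays left out. In HL-60 the count of 5 became 3 with only that line's arrays. The shSYK_2 count of 8 became 5 with that array moved. The U937 minus HL-60 count of 1 became 3 with 1 probe set per gene, 2 with probe sets averaged by gene, 0 with arrays centred on their median, 3 with quantile normalisation repeated, 4 with log2(intensity + 16), 4 with the dimmest 40% left out, 4 with a trended and robust prior, 0 with that array moved, and 0 to 2 with single arrays left out. With the replicate block this count was 0, that of MOLM-14 against the other lines 1 of 3 and that of shLuc MOLM-14 against HL-60 7 of 13; over all comparisons the block ended 41 calls and added 0, and the BLNK difference of MOLM-14 from the other lines became -0.91 (adjusted p = 0.062). Same-numbered arrays of a line correlated at -0.2 to 0.0864 in their deviations from the group means, 0 of 18 above 0.1. In a group of 2 arrays these deviations mirror each other, so few of the correlations are independent. The check cannot decide whether same-numbered arrays share a batch. Where no array or construction is named, the cause was not tested.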
